A study of Mus musculus with 9 samples.

Results

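The genes described here are those of the interferon response and of the major histocompatibility complex (MHC), which mice call H2. Members were taken by symbol: names that start with Ifi, Ifn, Isg, Oas, Gbp, Irgm or H2-, with Irf or Stat and a digit, or the name Igtp, leaving out H2-Ab1. Of the 8102 genes that could be named on the array 72 met this rule, read by 88 of its 46657 probes, out of 160 mouse gene symbols that meet it in the reference gene table. The rule also takes in a few genes that are neither interferon genes nor MHC chains: Irf2bpl, named for its likeness to proteins that bind IRF2, H2-Ke6, a metabolic enzyme encoded in the H2 region, and Ifngas1, an RNA beside the interferon gamma gene.

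Interferons are secreted alarm proteins that bind receptors on neighbouring cells. Their receptors signal through JAK kinases to STAT proteins, which, with the IRF factors, switch on antiviral proteins, GTPases that act against intracellular microbes, and the machinery of antigen presentation. MHC class I molecules show peptides from inside nearly every cell to CD8 T cells and natural killer cells, while class II molecules, loaded in endosomes with the help of H2-DM and the invariant chain, are mainly made by macrophages, dendritic cells and B cells. In the heart, resident macrophages are the usual source of class II RNA, whereas class I and the interferon-induced GTPases can be made by muscle, vessel and immune cells.

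RNA came from whole hearts of FVB mice aged 14 days and was read on 9 Illumina bead arrays, 3 per group. The control group is labelled only as control. N-line hearts carried a transgene of a membrane transport protein in its wild-type form, and K-line hearts one of a mutant of that protein that is always active. The promoter of the transgenes and the number of founder lines are not given in the sources used here, and the labels do not say that each array is a separate animal. The p-values therefore rest on the spread between arrays, part of which may be technical.

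Each array detected 17937 to 19021 probes, and arrays correlated on average at 0.989 to 0.994 with the others of their group. The labelled tissue was borne out in control and N-line, where all 6 cardiomyocyte marker probes were detected on every array. Myh6 among them was at 13.08 log2 units in control. In K-line 5 of the 6 were detected on every array. Myl7, the atrial myosin light chain, stood apart: it was at 13.46 in control and 13.63 in N-line, but read 5.22, 8.44 and 4.90 on K-line arrays 3, 5 and 6, a difference of -7.28 from control (SE 0.69, adjusted p 5.18e-05). Of the other cardiomyocyte probes, Myh7, the slow myosin heavy chain, was higher in K-line by 1.77 and the sarcomere protein Mybpc3 by 0.34, and the calcium release channel Ryr2 was lower (-0.57). What part these differences have in the member values was not tested. The label of male sex was not borne out for K-line: Xist, the RNA of the inactive X chromosome, gave a signal on all 3 K-line arrays but on 0 of the 6 control and N-line arrays, and the Y-linked Kdm5d, Ddx3y and Eif2s3y were detected on 0 of 3 K-line arrays. K-line arrays also lay on a slide of their own, while control and N-line shared another. The raw values of K-line carry an earlier date in the deposit than those of control and N-line. Line, slide, date, the low Myl7 and these sex-linked signals therefore cannot be told apart in any comparison with K-line, and no K-line array is free of them.

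Many of the interferon and MHC probes that could be named gave no signal in these hearts. A probe was counted as detected where its detection p-value, which sets it against the array's negative controls, was under 0.05, and it was tested where that held on at least 3 of the 9 arrays. Of the 88 probes, 31 (35.2%), for 30 genes, were tested, against 42.2% of all probes, 24 were detected on all 9 arrays, and 52 (59.1%) were detected on 0 arrays. The remaining 5, for Gbp2, Gbp2b, Ifi205, H2-T22 and a second H2-T23 probe, were seen on 1 or 2 arrays. Of the tested members 29 reached the limit on the control and N-line arrays alone, and H2-D4 and Irf2bpl passed only with the K-line arrays.

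Some families gave no signal through the probes that could be named. Only 9796 of the 46657 probes were named through a gene number, so other members of these families may lie unnamed on the array. Among the interferons themselves 14 of 15 probes were detected on 0 arrays, including all those for the interferon alpha genes, Ifnk and Ifnl3. The exception was a probe for Ifnz, interferon zeta, at 6.28 ± 0.28 in control (SD, n = 3), while a second Ifnz probe was not detected. All 4 probes named for the Ifit family (2 genes), known for binding foreign RNA, and all 6 for the Oas enzymes (3 genes), which sense double-stranded RNA, were detected on 0 arrays of any group. So were Ifi44l, Stat4, Gbp4, Gbp6, Gbp9 and H2-D1, a classical class I gene. FVB mice carry another H2 haplotype than the reference strain, and H2 class I genes are close copies of each other. Whether the probes match the FVB alleles was not tested, and a class I probe may read several paralogs.

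**Figure D1:**
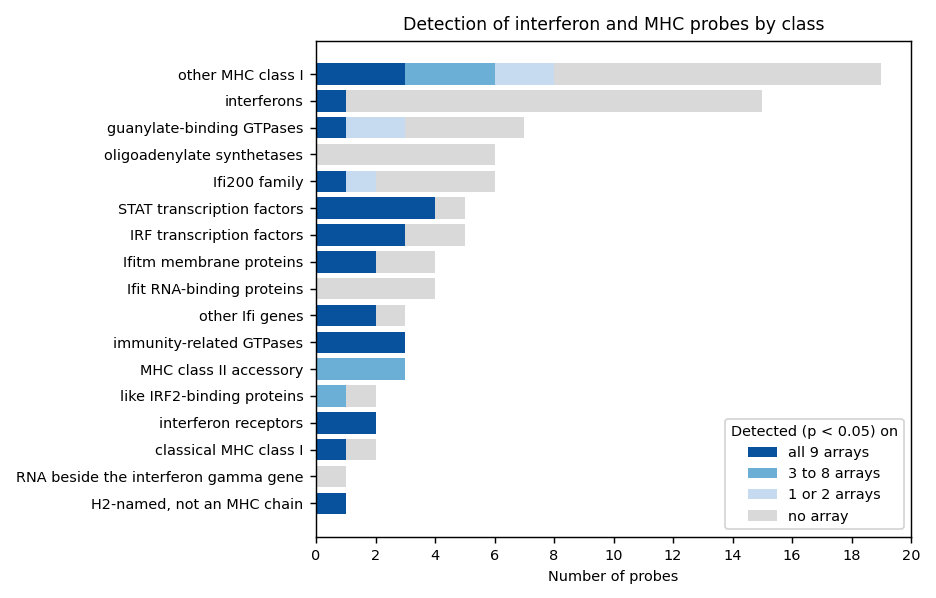
Number of member probes (x axis) in each functional class (y axis), coloured by how many of the 9 arrays detected them. The Ifit and Oas classes have no detected probe, and 14 of 15 interferon probes were detected on no array.

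The number of detected members was 26, 27 and 26 on control arrays 1, 2 and 3, 28, 28 and 32 on N-line arrays 2, 3 and 4, and 31, 31 and 33 on K-line arrays 3, 5 and 6. These counts overlap between N-line and K-line, while those of control lie below both lines. Over all probes 17937 to 18682 were detected in control, 18616 to 19021 in N-line and 18482 to 18957 in K-line, which overlap.

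The comparison of K-line with control asks what differs in hearts with the always-active transporter. In K-line 12 of the 31 tested member probes were higher and 0 were lower at an adjusted p under 0.05 in limma, in which p-values were adjusted over all 19692 tested probes. That is 38.7% higher, against 12.0% of all tested probes, and 0 lower, against 12.4%. Among the 29 members that pass the detection limit without K-line arrays, 11 were higher. For 13 members (41.9%, against 19.5% of all tested probes) every K-line array lay above every control array. Restricted to probes detected on all 9 arrays, 8 of 24 members were higher, against 12.5% of such probes, and in the authors' value table, where the median probe also lies 0.23 higher in K-line, 18 of 31 were, against 29.6%. The median log2 difference of the tested members was 0.18, against -0.01 for all tested probes, and 12 (38.7%) differed by more than 0.5 in either direction, against 14.6% of all. The higher probes were the 3 for H2-DM, 4 for class I, 2 immunity-related GTPases, Gbp5, Ifi27l2a and Irf2bpl.

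Tested markers of macrophages and leukocytes were higher in K-line too. All 9 of their probes that pass the detection limit on the control and N-line arrays alone were higher in K-line, with a median difference of 1.60, led by the lysozyme gene Lyz2 (2.89), the chemokine gene Ccl2 (1.96) and the lysosomal marker Cd68 (1.85). Probes for Cd52, Lyz1 and Ptprc were tested only through the K-line arrays, where they were high, and Cd52 and Ptprc were below background on all control arrays and at least 1.99-fold higher in K-line. The summed signal above the offset of all 12 tested probes, these 3 included, was 5405, 9418 and 8249 on K-line arrays 3, 5 and 6. It was 1851 to 2005 in control and 1946 to 2020 in N-line. A probe for Itgam was detected on 0 arrays, and second probes for Ptprc, Lyz1 and Lyz2 on 0 to 2. The other immune lists were measured thinly. Of 6 T cell probes 3 were tested, with Cd247 lower (-0.52) and Cd3e at 0.06. Il7r was below background on all control and N-line arrays, was tested only through the K-line arrays and was at least 2.40-fold higher there than in control. The 2 T cell probes that pass the detection limit without K-line arrays had a median difference of -0.23, with 0 higher and 1 lower. The Cd8b1 probe and the 3 natural killer cell probes, for Klrk1 and Eomes, were detected on 0 arrays, as were 7 of 9 neutrophil probes, while S100a9 stood at 0.30. Csf3r, below background on all control arrays and tested only through the K-line arrays, was at least 1.40-fold higher in K-line. The B cell gene Ighm stood at 0.10 with a signal of 57 to 518 in control and 72 to 424 in K-line, and the dendritic cell gene Zbtb46 at -0.11. Of 6 endothelial probes 0 were higher and 2 lower, Robo4 (-0.43) and Cav1 (-0.29), and of 11 fibroblast probes 2 were higher, Postn (1.07) and Pcolce (0.71), and 2 lower, Fbln1 (-0.62) and Islr (-0.41). A second Fbln1 probe stood at -0.20 (adjusted p 0.151). Over all tested probes the shares were 12.0% higher and 12.4% lower. In N-line 0 of the 12 macrophage and leukocyte probes passed the test against control (median 0.04). In whole tissue, more cells of a type and more RNA per cell cannot be told apart. What part these cells have in the member differences was not tested.

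**Figure D2:**
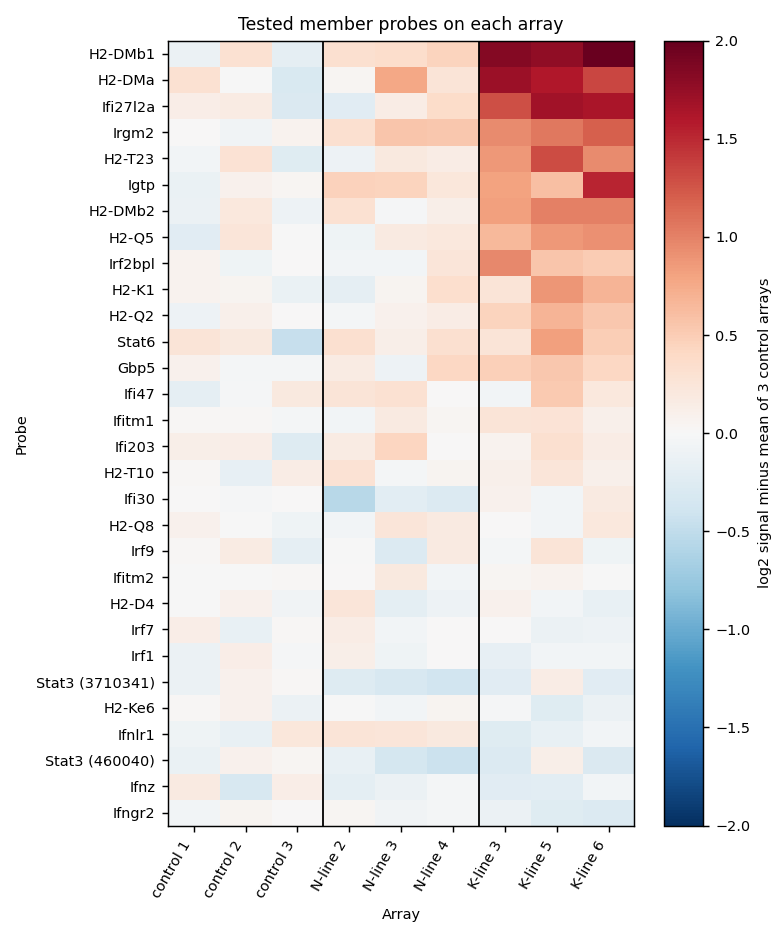
Signal of 30 of the 31 tested member probes (rows, in order of the K-line difference) on each of the 9 arrays (columns), as log2 signal minus the mean of the 3 control arrays, on a scale from -2 to 2. The top rows, led by H2-DMb1 and H2-DMa, are darkest on the 3 K-line arrays.

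The class II accessory genes H2-DMb1 and H2-DMa had the 2 largest member differences from control, 1.86 and 1.55, just ahead of Ifi27l2a at 1.53. This order depended on the offset: at 50 they stood at 1.16 and 0.95, below Ifi27l2a at 1.43, and without background correction H2-DMb1 was at 1.29 and Ifi27l2a at 1.43. H2-DM is the heterodimer that removes the invariant chain peptide from class II molecules and helps choose the peptide that replaces it. H2-DMa encodes its alpha chain, and H2-DMb1 and H2-DMb2 encode beta chains. All 3 probes were dim in control, detected there on 1, 1 and 2 of 3 arrays in the order H2-DMa, H2-DMb1 and H2-DMb2, and on all 3 K-line arrays. The size of a dim probe's difference depended on the processing: in the authors' value table H2-DMb1 differed by 2.81, H2-DMa by 2.49 and H2-DMb2 by 1.77, and with an offset of 50 H2-DMb2 differed by 0.57, all with the call kept.

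H2-DMb1 read 4.78, 5.20 and 4.72 log2 units on the control arrays, 5.22, 5.26 and 5.35 in N-line, and 6.74, 6.68 and 6.87 in K-line. The 3 groups did not overlap, with K-line far above the rest. It was higher in K-line than in control by 1.86 (SE 0.13, n = 3 per group, adjusted p 5.68e-06) and than in N-line by 1.49 (SE 0.13, adjusted p 2.58e-05). In N-line against control it stood at 0.37 (95% confidence interval 0.10 to 0.65), which did not pass the test (adjusted p 0.234).

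H2-DMa read 5.32, 5.0 and 4.71 in control, 5.04, 5.78 and 5.26 in N-line, and 6.72, 6.61 and 6.34 in K-line. Control and N-line overlapped, and every K-line array lay above both. The K-line difference was 1.55 from control (SE 0.20, adjusted p 3.78e-04) and 1.20 from N-line (adjusted p 0.00188).

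H2-DMb2 read 5.15, 5.47 and 5.16 in control, 5.57, 5.23 and 5.38 in N-line, and 6.07, 6.26 and 6.26 in K-line. It showed the same order of groups, with differences of 0.94 from control (SE 0.12, adjusted p 4.15e-04) and 0.81 from N-line (adjusted p 0.00110). The beta chain genes are near copies, and their probes may not tell them apart.

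The invariant chain gene Cd74, outside the rule, was at 7.45 to 8.09 in control, 7.91 to 8.13 in N-line and 9.83 to 10.09 in K-line, a K-line difference of 2.29 from control (SE 0.16, adjusted p 5.68e-06). Ifi30, a thiol reductase that opens disulphide bonds in endosomes for class II loading, did not follow H2-DM and Cd74. It read 7.33, 7.30 and 7.32 in control, 6.76, 7.11 and 7.04 in N-line, and 7.39, 7.25 and 7.49 in K-line. N-line was the low group, without overlap, and control and K-line overlapped. Ifi30 was higher in K-line than in N-line by 0.41 (SE 0.11, adjusted p 0.0214), a call that was lost without K-line 6 or without N-line 2, while the N-line difference from control was -0.34 (adjusted p 0.208).

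Class I genes were also higher in K-line. Of the 7 tested class I probes 4 passed the test, all on the higher side, with differences from 0.56 to 1.04. Over all tested probes 12.0% were higher and 12.4% lower. H2-K1 is a classical class I gene, which presents peptides to CD8 T cells, and H2-T23 encodes Qa-1, the mouse molecule recognised by the NKG2A receptor of natural killer cells. H2-Q2 and H2-Q5 are class I genes of the Q region.

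H2-T23 read 6.68, 7.02 and 6.48 in control, 6.63, 6.92 and 6.88 in N-line, and 7.60, 8.03 and 7.67 in K-line. K-line stood clear of both other groups, which overlapped each other. The difference was 1.04 from control (SE 0.16, adjusted p 0.00101) and 0.96 from N-line (adjusted p 0.00172), while the second H2-T23 probe was detected on 1 array only.

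H2-Q5 read 6.87, 7.34 and 7.08 in control, 7.0, 7.28 and 7.31 in N-line, and 7.74, 7.96 and 8.01 in K-line. H2-Q2 read 9.34, 9.54 and 9.45 in control, 9.41, 9.52 and 9.59 in N-line, and 9.89, 10.13 and 9.99 in K-line. For both genes the lowest K-line array was above the highest of the other 6. H2-Q5 differed from control by 0.81 (SE 0.14, adjusted p 0.00208) and H2-Q2 by 0.56 (SE 0.10, adjusted p 0.00286), and from N-line by 0.70 and 0.49 (adjusted p 0.00449 and 0.00570). A second H2-Q2 probe was detected on 0 arrays.

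H2-K1 was less even. It read 8.60, 8.59 and 8.39 in control, 8.34, 8.58 and 8.86 in N-line, and 8.78, 9.40 and 9.21 in K-line, where array 3 was lowest and lay below the highest N-line array. The difference of 0.60 from control (SE 0.17) had an adjusted p of 0.0254, and it missed the threshold when any of control 1, 2 or 3, K-line 5 or K-line 6 was left out, with adjusted p-values up to 0.0861. From N-line it was 0.53 (adjusted p 0.0416), a call that held only without K-line 3 or N-line 4 when 1 array was left out.

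The other 3 tested class I probes, for H2-T10, H2-Q8 and H2-D4, were dim, detected on 6, 5 and 4 of the 9 arrays. Their K-line differences from control were 0.15, 0.05 and -0.04, with 95% confidence intervals from -0.11 to 0.40, from -0.19 to 0.30 and from -0.31 to 0.23. None passed the test.

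**Figure D3:**
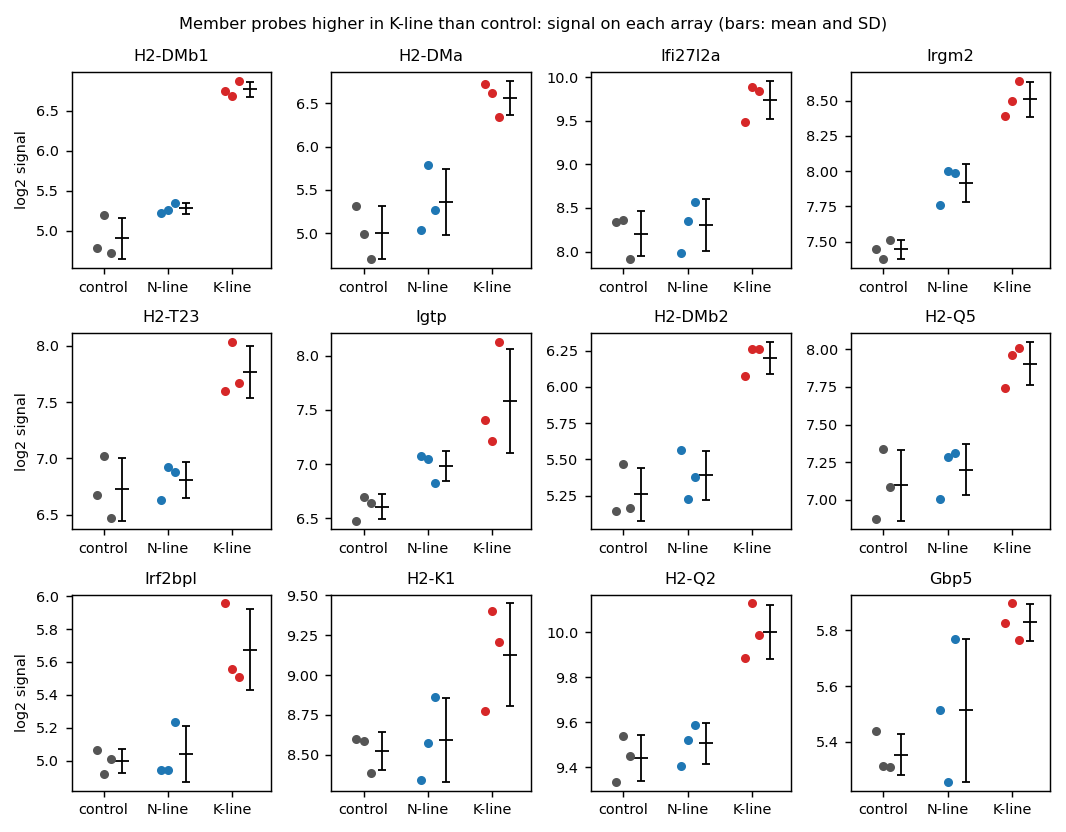
Signal (y axis, log2 units, a separate scale per panel) of the 12 member probes that were higher in K-line than in control, with a point for each array and the mean and SD of each group of 3 (bars). K-line points lie above all control points in every panel, and Irgm2, Igtp and H2-DMb1 also show N-line between the other groups without overlap.

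A second group of higher genes were GTPases that interferon gamma induces. Irgm2 and Igtp (also called Irgm3) are immunity-related GTPases of the regulatory kind, which sit on membranes and control how effector GTPases attack the vacuoles of microbes. Gbp5, a guanylate-binding protein, acts in inflammasome activation. Of the 3 immunity-related GTPases 2 were higher in K-line, against 12.0% of all tested probes. The only tested guanylate-binding probe, that for Gbp5, was higher too.

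Irgm2 read 7.45, 7.38 and 7.51 in control, 7.76, 8.0 and 7.99 in N-line, and 8.39, 8.50 and 8.64 in K-line. The 3 groups formed 3 steps without overlap. K-line was higher than control by 1.07 (SE 0.10, adjusted p 6.29e-05) and than N-line by 0.60 (SE 0.10, adjusted p 0.00238). N-line stood 0.47 above control (SE 0.10, 95% confidence interval 0.24 to 0.70), with an adjusted p of 0.0704, and passed the threshold when the offset was 50 (0.40, adjusted p 0.0489).

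Igtp read 6.48, 6.70 and 6.64 in control, 7.07, 7.05 and 6.82 in N-line, and 7.41, 7.21 and 8.13 in K-line. The groups again did not overlap, but K-line 6 lay well above the other K-line arrays. The difference from control was 0.98 (SE 0.20, adjusted p 0.00481) and 0.71 without K-line 6. That from N-line was 0.60 (adjusted p 0.0448), fell to 0.33 without K-line 6 and lost its call in 7 of the 9 fits with 1 array left out, all but those without K-line 3 or K-line 5. N-line against control gave 0.37 (adjusted p 0.511).

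Gbp5 read 5.44, 5.31 and 5.31 in control, 5.51, 5.26 and 5.77 in N-line, and 5.83, 5.90 and 5.76 in K-line. N-line spanned nearly the whole range, from below every control array to within the K-line values. The K-line difference from control was 0.48 (SE 0.12, adjusted p 0.0183), lost without control 2, control 3 or K-line 5, and was 0.28 with an offset of 50 and 1.08 in the authors' value table. From N-line it was 0.32 (adjusted p 0.0887), and 0.44 with a call without N-line 4. Ifi47, the third immunity-related GTPase, stood at 0.23 in K-line against control (95% confidence interval -0.11 to 0.57), and its groups overlapped.

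The promoters of the 3 higher GTPases are shown because all of them hold, within 250 bases upstream of the start in RefSeq (assembly GRCm38.p6), the letters of both kinds of interferon element. Searched on both strands were the core of the interferon-stimulated response element that STAT and IRF proteins bind (ISRE, here GAAA, any 2 bases and GAAA again), TTCNNNGAA, the core of the STAT dimer element (GAS), and ATTGG, the Y box of class II promoters. Capitals mark ISRE and GAS letters, on either strand.
Irgm2, chr11:58214727-58214976, plus strand: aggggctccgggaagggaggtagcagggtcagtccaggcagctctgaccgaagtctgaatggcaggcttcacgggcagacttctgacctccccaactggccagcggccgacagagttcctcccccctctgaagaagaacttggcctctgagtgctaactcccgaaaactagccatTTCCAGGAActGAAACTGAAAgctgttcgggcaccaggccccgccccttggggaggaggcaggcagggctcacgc
Igtp, chr11:58199306-58199555, plus strand: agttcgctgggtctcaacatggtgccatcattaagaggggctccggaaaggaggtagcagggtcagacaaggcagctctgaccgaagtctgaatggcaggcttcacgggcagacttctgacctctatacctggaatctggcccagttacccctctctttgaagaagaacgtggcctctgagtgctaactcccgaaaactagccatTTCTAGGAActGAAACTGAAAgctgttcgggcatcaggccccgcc
Gbp5, chr3:142496684-142496933, plus strand: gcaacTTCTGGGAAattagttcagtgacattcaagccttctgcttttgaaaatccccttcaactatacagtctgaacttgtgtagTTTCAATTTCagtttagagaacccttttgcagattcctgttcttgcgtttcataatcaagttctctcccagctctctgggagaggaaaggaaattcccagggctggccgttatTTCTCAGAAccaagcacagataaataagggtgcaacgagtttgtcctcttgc

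In Igtp the GAS letters began 45 bases and the ISRE letters 34 bases upstream of the start, and in Irgm2 75 and 64 bases, so the same pair stood in the same order in both. The 2 windows share an unbroken run of 55 identical bases, farther upstream. In Gbp5 the elements were apart, with the ISRE 165 bases upstream and GAS letters nearer to and farther from the start. Both motifs in 1 window occurred in 108 of 27025 genes (0.4%), in 10 of the 57 member genes with a window, and among the 24 tested ones in Gbp5, Igtp and Irgm2 only. The other members with both were Ifna1, Ifna5, Ifna9, Ifna14, Ifna15, Ifnab and Oas1a, none of them detected on any array. The window of Ifi47 held neither motif.

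Over the members as a whole, the ISRE was found in higher genes, in genes that were not higher and in untested ones. It was in the window of 25 of 57 member genes (43.9%), against 3.46% of all 27025 genes with a window. These were 4 of the 10 higher genes with a window (all but H2-Q5 and Ifi27l2a), 2 of the 14 tested genes that were not higher, and 19 of the 33 members that were not tested (57.6%). GAS letters, in 8.13% of all genes with a window, were in 4 of 10, 1 of 14 and 8 of 33 of the same groups, and the Y box, in 37.5%, in 6 of 10, 5 of 14 and 17 of 33. These matches are a description of letters and say nothing of what is bound there.

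The promoters of H2-T23 and H2-DMb1 are shown as the leading class I and class II accessory genes. Capitals mark the ISRE and the Y box, both on the opposite strand in H2-T23, and the Y box in H2-DMb1.
H2-T23, chr17:36032702-36032951, minus strand: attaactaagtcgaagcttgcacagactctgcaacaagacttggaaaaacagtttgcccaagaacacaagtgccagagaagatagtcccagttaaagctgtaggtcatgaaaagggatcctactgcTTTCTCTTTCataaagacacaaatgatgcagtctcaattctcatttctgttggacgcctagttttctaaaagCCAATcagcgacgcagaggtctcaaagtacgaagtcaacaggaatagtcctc
H2-DMb1, chr17:34152941-34153190, plus strand: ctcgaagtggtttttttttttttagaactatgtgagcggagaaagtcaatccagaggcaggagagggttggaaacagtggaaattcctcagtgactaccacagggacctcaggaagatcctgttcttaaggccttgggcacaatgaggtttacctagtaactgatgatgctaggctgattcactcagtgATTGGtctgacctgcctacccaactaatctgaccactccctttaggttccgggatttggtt

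In H2-T23 the ISRE stood 124 bases and the Y box 52 bases upstream, and in H2-DMb1 the Y box stood 61 bases upstream with neither interferon motif in the window. The windows of H2-DMb2, H2-K1 and H2-Q2, and 1 of the 2 windows of H2-DMa, also held a Y box.

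Single members of other families were higher too. Ifi27l2a, a small membrane protein strongly induced by type I interferon, read 8.34, 8.36 and 7.91 in control, 7.98, 8.36 and 8.57 in N-line, and 9.49, 9.89 and 9.84 in K-line. Control and N-line overlapped, and all 3 K-line arrays were higher. The difference was 1.53 from control (SE 0.17, adjusted p 1.70e-04) and 1.44 from N-line (SE 0.17, adjusted p 2.80e-04).

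Irf2bpl, a nuclear protein named for its likeness to IRF2-binding proteins, was not detected on any control array and on 1 of 3 N-line arrays. It read 5.07, 4.92 and 5.01 in control, 4.94, 4.95 and 5.24 in N-line, and 5.96, 5.56 and 5.51 in K-line, where array 3 was highest. The fitted difference from control was 0.67 (SE 0.13, adjusted p 0.00449), and against the lowest signal that counts as detected, which is the bound used for a group below background, K-line was at least 1.44-fold higher. The fitted difference was 0.37 with an offset of 50 and 1.51 in the authors' value table. From N-line the difference was 0.63 (adjusted p 0.00647), and a second probe was detected on 0 arrays.

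The receptors and transcription factors that carry the interferon signal were not among the higher genes. Ifngr2, a chain of the interferon gamma receptor, was at 12.56 ± 0.06 in control, 12.54 ± 0.05 in N-line and 12.35 ± 0.08 in K-line (SD, n = 3). The K-line arrays did not overlap the others, but the difference of -0.21 (SE 0.09) had an adjusted p of 0.104, and it passed the threshold with an offset of 50, without the filter or with a variance trend. Ifnlr1, the specific chain of the receptor for interferon lambda, read 6.96, 6.89 and 7.27 in control, 7.29, 7.28 and 7.23 in N-line, and 6.80, 6.89 and 6.99 in K-line. N-line was the tight, high group. Ifnlr1 was lower in K-line than in N-line by 0.37 on the log2 scale (-0.37, SE 0.11, adjusted p 0.0328), a call lost without K-line 3, K-line 5 or any 1 of the N-line arrays, and under the authors' value table or median scaling, and neither line passed the test against control.

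IRF7, which amplifies interferon production, is itself interferon-induced, as are IRF1 and IRF9. For Irf1 the K-line difference from control was -0.09 (95% confidence interval -0.31 to 0.13) around a control level of 8.16 ± 0.12, for Irf7 -0.07 (-0.30 to 0.16) and for Irf9 0.05 (-0.27 to 0.36). The highest upper end of these 3 intervals was 0.36.

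Stat6, which acts downstream of interleukins 4 and 13, stood at 0.52 in K-line against control (95% confidence interval 0.10 to 0.94, adjusted p 0.0694). Control 3 was low for Stat6, at 5.61 against 6.33 and 6.26, and the K-line values of 6.32, 6.88 and 6.56 overlapped the control values. The call appeared under the authors' value table, median scaling and a block for the replicate number, and without K-line 3. Both Stat3 probes gave like values, -0.10 and -0.15 in K-line against control and -0.32 and -0.31 in N-line against control (adjusted p 0.288 and 0.372). In N-line each Stat3 probe lay below all control arrays, at 11.34 ± 0.07 and 11.27 ± 0.14 against 11.65 ± 0.10 and 11.58 ± 0.11.

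The remaining members named here did not pass the test in any comparison. The Ifitm proteins, which block the entry of viruses, were at 12.01 ± 0.04 for Ifitm1 and 11.12 ± 0.02 for Ifitm2 in control, with K-line differences of 0.21 (adjusted p 0.137) and 0.03. Ifi203, a DNA-binding protein of the Ifi200 family, was at 0.18 with overlapping groups, H2-Ke6 (10.88 ± 0.10 in control) at -0.13 and Ifnz at -0.17.

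**Figure D4:**
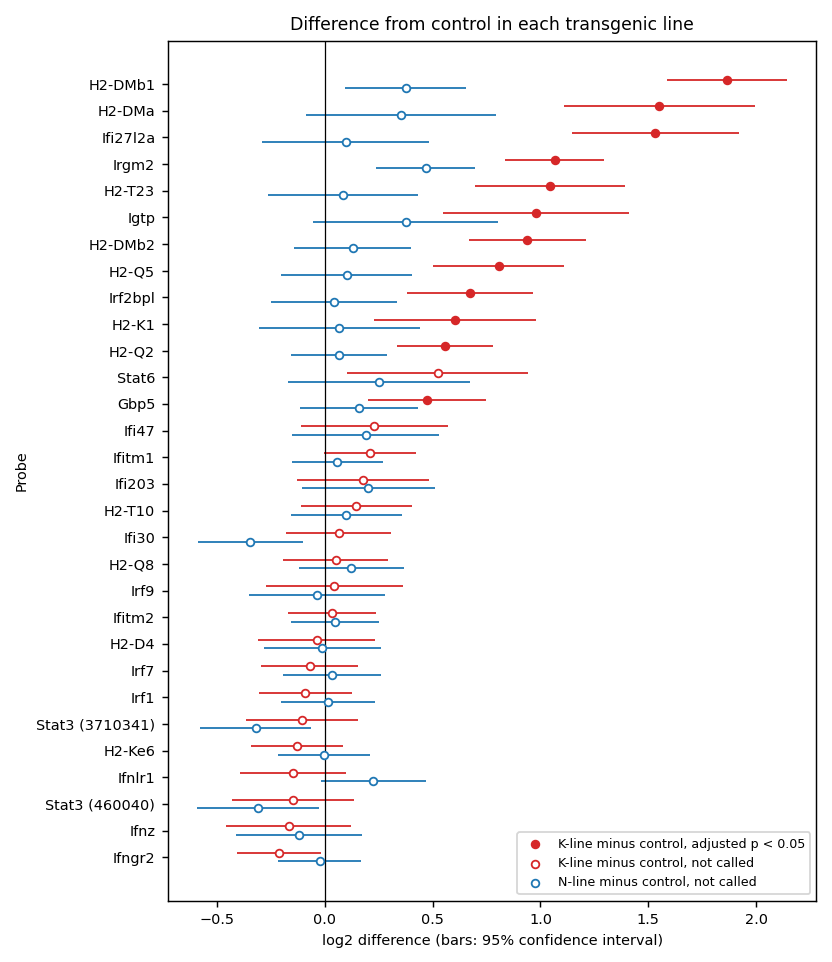
Log2 difference from control (x axis) of 30 of the 31 tested member probes (y axis) in K-line (red) and N-line (blue), with 95% confidence intervals and filled points for an adjusted p under 0.05. The filled points are the 12 K-line calls, from 0.48 to 1.86, and no N-line point is filled.

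The comparison of N-line with control asks what the wild-type transgene gives, on arrays of a single slide. None of the 31 members was called by limma (0, against 0.929% of all tested probes). At an unadjusted p under 0.05 there were 5 (16.1%, against 11.8% of all), which were Irgm2 and H2-DMb1 on the higher side and Ifi30 and both Stat3 probes on the lower. Groups did not overlap for 6 members (19.4%, against 19.7% of all). The median difference was 0.08, no member differed by more than 0.5, and the extremes were -0.34 for Ifi30 and 0.47 for Irgm2.

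The comparison of K-line with N-line sets the active mutant against the wild-type transgene. There 12 of 31 members were higher (38.7%, against 12.1% of all tested probes) and 1 was lower (3.23%, against 12.2%), with a median of 0.16. The higher members were H2-DMb1, H2-DMa, H2-DMb2, H2-T23, H2-Q5, H2-Q2, H2-K1, Irgm2, Igtp, Ifi27l2a, Irf2bpl and Ifi30, and the lower was Ifnlr1. Irf2bpl passed the detection limit only with the K-line arrays, where it was high. Of the 24 members detected on all 9 arrays 8 were higher, against 2017 of 15818 such probes. Both K-line comparisons use the same K-line arrays, so they are not independent. Of these 13 differences 9 moved by over 1.5 times in the authors' value table, all upward except that of Ifnlr1, which stood at -0.08 there. This comparison is also the test of whether the lines differ in their distance from control.

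Other genes of the pathway were taken from gene lists that the symbol rule does not reach. Of 13 tested interferon-induced effectors and sensors 1 was higher in K-line than in control and 0 were lower, against 12.0% and 12.4% of all tested probes, with a median of 0.13. That gene was Tor3a, an ATPase of the endoplasmic reticulum induced by interferon, at 6.94 in control and 7.56 in K-line (0.63, SE 0.15, adjusted p 0.0119). Cxcl9, in this list, passed the detection limit only with the K-line arrays, and the 12 others had a median of 0.07. Probes for the antiviral genes Mx1, Mx2, Dhx58, Herc6, Parp12 and Iigp1 were detected on 0 arrays.

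Among 15 tested probes for interferon signalling 3 were higher and 0 were lower, against the same 12.0% and 12.4%, with a median of 0.15. Of the 14 that pass the detection limit without K-line arrays 2 were higher and 0 lower, with a median of 0.10. Ticam1, the adaptor TRIF of Toll-like receptors 3 and 4, was below background on all control arrays, was tested only through the K-line arrays and was at least 1.44-fold higher there (adjusted p 0.00103). Il6st, the shared receptor chain gp130, was higher by 0.45 (adjusted p 0.0235), and a Tlr4 probe, with overlapping groups, by 0.38 (adjusted p 0.0433), while the second, brighter Tlr4 probe stood at 0.20 (adjusted p 0.507). Socs1, the feedback inhibitor of interferon receptors, was lower in K-line than in N-line (-0.44, SE 0.09, adjusted p 0.00728).

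Of 11 tested antigen processing probes 2 were higher and 1 was lower in K-line than in control, shares near those of all tested probes (12.0% and 12.4%), with a median of 0.06. Beside Cd74, the immunoproteasome subunit Psmb10 was higher, at 10.13 to 10.29 in control and 10.67 to 10.77 in K-line (0.50, SE 0.09, adjusted p 0.00228). Rfxank, a subunit of the RFX complex that binds class II promoters, was lower (-0.59, SE 0.16, adjusted p 0.0188). In N-line 0 probes of these 3 lists were called against control. In K-line against N-line 12.1% of all tested probes were higher and 12.2% lower. Of the 13 effectors 1 was higher there, Tor3a (0.54), and 1 lower, Pml (-0.35). Of the 15 signalling probes 4 were higher, both Tlr4 probes, Ticam1 and Jak2, and 1 lower, Socs1. Ticam1 was in that set only through the K-line arrays. Of the 11 antigen processing probes 2 were higher, Cd74 (1.93) and Psmb10 (0.27), and 1 lower, the proteasome activator subunit Psme1 (-0.37). A second Psme1 probe stood at -0.31 there (adjusted p 0.181).

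**Figure D5:**
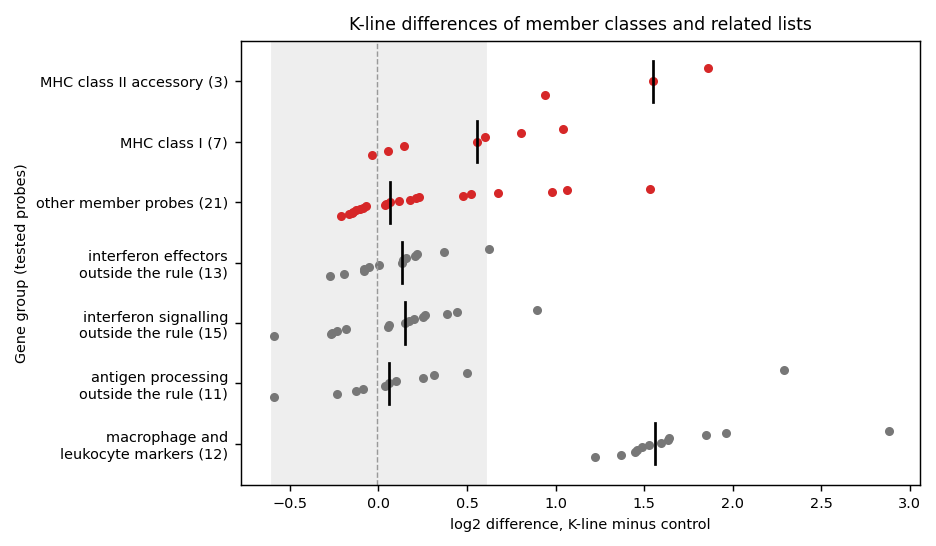
Log2 difference between K-line and control (x axis) of each tested probe in member classes (red) and in related gene lists (grey), with the number of probes in brackets, the median as a bar, and the middle 90% of all tested probes shaded. The H2-DM probes and the macrophage and leukocyte markers lie wholly to the right of the shaded range, while the medians of the 3 pathway lists lie inside it. Of these markers, Cd52, Lyz1 and Ptprc were tested only through the K-line arrays, where they were high.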

How the data were processed

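Hearts of 3 groups of 3 were measured on Illumina Mouse-6 bead arrays, after RNeasy extraction from frozen tissue and TotalPrep labelling, per the labels' protocols. Per the file headers and the submitters' processing notes, the deposited intensity of a probe is the mean over its beads, which the authors took from BeadStudio 2.3.47 without normalization. The authors also deposited a detection score per probe, a fraction that nears 1 for bright probes. The detection p-value is 1 minus that score. The deposited tables also give bead numbers, with a median of 34 beads per member probe and array (12 to 67). The authors' own value table, with 46643 probes, has linear intensity values that can be negative. No source used here states its normalization. It served as an alternative, floored at 16. A further 36 columns of per-sample values were not used.

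Intensities were background-corrected with normexp on the detection p-values in limma 3.58.1 (R 4.3.3), with an offset of 16, quantile normalized over the 9 arrays on the linear scale, and set to log2. The 19692 probes detected (p-value under 0.05) on 3 or more arrays entered the test. A limma model of 3 group means (lmFit and eBayes, 6 residual and 4.96 prior degrees of freedom) gave log2 differences, and Benjamini-Hochberg adjustment ran over all tested probes at a threshold of 0.05. The fit was tested on simulated data. The number of arrays limits the precision.

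Probes were named by the gene number in their code, a reading inferred from the files: 9796 of 11857 codes (82.62%) matched a mouse gene number in the RefSeq table of GRCm38.p6. No pair of arrays shared more than 327 raw values, so all 9 were kept as samples. Promoter windows were found for 57 of the 72 member genes. The transgene's own level and some member genes' values are not reported here.

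Member probes with an adjusted p under 0.05 in any comparison are given on every array, with other tested probes of the same gene. Group values are given for the 10 brightest member probes and for the member of each class with the largest K-line difference, and from other lists the 3 largest rises and falls in K-line against control among adjusted p-values under 0.05. Genes named outside this rule, such as cell markers and members that missed the threshold, give context and were chosen after their values were seen. Members and lists were chosen with earlier results of these data known. Over the 3 comparisons 19 settings were tried: background, offset, scaling, filter, model, slide, replicate block and each array left out.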

Additional observations from a re-analysis of the deposited data

How the results depend on the processing

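The member count in N-line against control was 1 in place of 0 with an offset of 50 and with the replicate block, both times Irgm2 (adjusted p 0.0489 and 0.0494). Counts without 1 array ran from 10 to 13 in K-line against control, from 0 to 0 in N-line against control and from 9 to 12 in K-line against N-line. In K-line against control all 12 calls were shared with each setting that kept all arrays, except that H2-K1 was lost without the filter, and the H2-DM probes and Irf2bpl were not tested when detection on all 9 arrays was required (8 calls). The authors' value table gave 18 calls there. In that table all probes together were shifted towards K-line by a median of 0.23, and 84.7% of all calls were higher, against 49.2% in the reported fit and 70.5% with median scaling (shift 0.09). For K-line against N-line the higher share was 85.9%, 49.8% and 76.6%, with shifts of 0.23 in the authors' table and 0.12 with median scaling. Relative to those shifts every called member kept its sign in both scalings. Of the alternative values for called probes, 203 of 212 in K-line against control kept the call and 9 lost it, and 203 of 230 in K-line against N-line kept it and 27 lost it. Among values for probes not called there, 1 of 36 and 2 of 18 gained a call. Of the 12 called differences in K-line against control, 5 (the H2-DM probes, Gbp5 and Irf2bpl) moved by over 1.5 times with an offset of 50, downward, and in the authors' table, upward. No value changed sign while called. Replicate numbers overlap in part, and same-numbered arrays deviated together in some pairs (correlations of 0.224 and 0.109 between control and N-line) and not in others (0.017 and -0.052), so they were not shown to pair. With the replicate block (consensus correlation 0.149) the counts were 13, 1 and 13 for K-line against control, N-line against control and K-line against N-line. The limits are 3 arrays per group, 52 of 88 member probes without signal, and class I probes that may read several paralogs. K-line also had its own slide and date, a low Myl7 and sex-linked signals that differ from its label.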
